A study of Mus musculus with 42 samples.

Results

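The genes described here are the cytosolic ribosomal protein genes, with *Rps4y2* set against the others. They were taken by name, as the table lines whose symbol begins with Rpl or Rps and a digit, together with *Rplp0*, *Rplp1* and *Rplp2*, leaving out pseudogene names with -ps and the Rps6k kinases. The rule found 87 of the 26653 genes in the table. Of these, 75 are the usual form of a ribosomal protein and are called core members here (45 of the large and 30 of the small subunit). Another 10 are called paralog variants, genes or pseudogenes named after the same ribosomal protein as a core member. Among them is *Rps4y2*, a copy of *Rps4x*, and not all of them need encode a ribosomal protein. The other 2 are neither. *Rps19bp1* encodes a protein that binds Rps19, and the line named *Rpl24* carries the identifier of *Zbtb11*, a zinc finger gene, by the gene annotation GENCODE vM21 (the identifier of *Rpl24* itself stands on a line spelled RPL24, which the rule does not take).

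The RNA came from 42 samples of male mice of the strain Tug1_tm1.1Vlcg on a C57BL/6J background, labelled N3 and free of the Neo cassette. The 22 wild-type (WT) samples carry 2 normal *Tug1* alleles. The 20 *Tug1*-/- (knockout) samples carry a lacZ reporter on both alleles where the long noncoding RNA *Tug1* would be. Per the study's description the promoter and first exon of *Tug1* were kept. Testes had 4 WT and 3 knockout samples and prostate 3 and 2. Liver, heart, spleen, eyes and fibroblasts grown from mouse embryos (MEFs, at passage 2) had 3 of each. Ages of the animals are not given in the labels. Polyadenylated RNA of whole tissue was sequenced, and the deposited table holds 1 expression value per gene, tissue and genotype in FPKM, fragments scaled to transcript length and library size, with the replicates already combined. No difference below therefore has a replicate check, a standard deviation or a p-value, and the depth behind each value is unknown.

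The cytosolic ribosome joins a small subunit, which reads the messenger RNA, to a large subunit, which forms the peptide bond, and its proteins are made in near equal numbers from single-copy genes scattered over the genome among many processed pseudogenes. Some ribosomal proteins have a second gene with a narrower tissue range. *Rpl3l* is known from heart and skeletal muscle, and *Rpl10l* and *Rpl39l* from testis, where the X chromosome, which carries *Rpl10*, *Rpl39*, *Rpl36a* and *Rps4x*, is silenced during meiosis of the male germ cells. *Rps4x* encodes S4, a protein of the small subunit. Whole tissues mix cell types, so fewer cells of a type and less RNA per cell cannot be told apart in any value below.

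How far a copy can be told from its usual form by sequencing depends on how many bases differ. The stretches below open the coding sequences of 3 pairs, with the longest open reading frame taken for *Rps4y2*. They are shown because the levels of these pairs carry most of what follows. They were read 5′ to 3′ from the GENCODE vM21 transcripts (GRCm38), with the bases that differ between the pair in capitals. For *Rps4x* and *Rps4y2* bases 1 to 240 are given, of which 51 differ.
Rps4x: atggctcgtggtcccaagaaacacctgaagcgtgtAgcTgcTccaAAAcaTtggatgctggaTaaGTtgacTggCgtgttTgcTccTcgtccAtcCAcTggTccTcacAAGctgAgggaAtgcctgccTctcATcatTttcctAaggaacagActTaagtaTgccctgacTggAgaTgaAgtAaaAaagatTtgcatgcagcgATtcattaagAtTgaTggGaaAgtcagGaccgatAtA
Rps4y2: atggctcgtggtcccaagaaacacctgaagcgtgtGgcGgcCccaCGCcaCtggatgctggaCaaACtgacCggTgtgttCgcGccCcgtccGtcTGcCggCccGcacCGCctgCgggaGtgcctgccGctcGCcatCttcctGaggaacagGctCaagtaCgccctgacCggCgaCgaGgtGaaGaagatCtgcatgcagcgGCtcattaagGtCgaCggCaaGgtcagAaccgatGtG
For *Rpl10* and *Rpl10l* bases 1 to 120 are given, of which 18 differ.
Rpl10: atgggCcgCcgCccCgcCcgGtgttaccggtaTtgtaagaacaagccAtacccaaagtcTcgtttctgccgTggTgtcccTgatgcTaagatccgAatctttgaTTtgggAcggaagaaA
Rpl10l: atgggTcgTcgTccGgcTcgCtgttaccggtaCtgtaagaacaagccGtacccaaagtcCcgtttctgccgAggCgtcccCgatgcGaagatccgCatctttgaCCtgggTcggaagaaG
For *Rpl39* and *Rpl39l* the whole coding sequence of 156 bases is given, of which 23 differ.
Rpl39: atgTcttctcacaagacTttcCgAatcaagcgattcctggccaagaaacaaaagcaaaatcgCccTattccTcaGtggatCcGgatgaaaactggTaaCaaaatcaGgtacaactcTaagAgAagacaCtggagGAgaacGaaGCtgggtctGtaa
Rpl39l: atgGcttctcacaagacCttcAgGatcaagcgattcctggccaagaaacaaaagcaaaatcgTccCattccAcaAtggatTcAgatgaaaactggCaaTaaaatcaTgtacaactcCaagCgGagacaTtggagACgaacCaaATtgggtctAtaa

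*Rps4y2* lies on chromosome 6 from 148354656 to 148355598 on the plus strand (GRCm38) and carries the symbol *Rps4l* in vM21. The table calls it protein coding, whereas vM21 classes it as a transcribed processed pseudogene, and its longest open reading frame of 789 bases matches the 792 bases of the *Rps4x* coding sequence (chromosome X from 102184941 to 102189394, minus strand) at 79.8% of the aligned positions. The longest identical run of that pair is 35 bases. Of the 894 distinct stretches of 50 bases in the *Rps4y2* transcripts, 133 also occur in transcripts of another gene, and that gene is the pseudogene *Rps4l-ps* (*Gm6816* in the table), listed between 0 and 0.0717 FPKM in every group. *Rps4x* by contrast shared 72.2% of such stretches with other genes, most of them with *Gm9616* and *Gm13680*, and over the core members the median share was 38.5%, with 26 of 75 above 50%. The coding sequences of *Rpl10* and *Rpl10l* were identical at 84.8% of positions, those of *Rpl39* and *Rpl39l* at 85.3% and those of *Rpl36a* and *Rpl36al* at 87.9%, and no stretch of 50 bases of *Rpl39l* occurred in another gene.

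The labels held for the targeted gene. *Tug1* was between 11.2 and 27.7 FPKM in the WT groups and at most 0.402 in the knockout groups. The 4 defining markers chosen for each tissue summed to between 722 FPKM (knockout spleen) and 28565 (WT liver) in their own tissue, and 0 was past 1.5-fold between the genotypes. *Alb* in liver and *Tgm4* in prostate were listed at 0 in both genotypes, and *Spink1*, a further prostate marker, was not found by its symbol.

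*Rps4y2* was higher in the knockout in every tissue but barely so in testes. Its change, given throughout as log2 of knockout over WT with 0.1 FPKM added to each, was 3.67 in spleen (12.7-fold), 3.64 in prostate (12.4-fold), 2.31 in liver (4.94-fold), 2.13 in heart (4.36-fold), 1.21 in MEFs (2.31-fold), 1.13 in eyes (2.19-fold) and 0.07 in testes (1.05-fold). In spleen it went from 3.9 FPKM in WT to 50.7 in the knockout, and in prostate from 8.32 to 105. In liver the values were 16.2 and 80.7 FPKM, and in heart 15.6 and 68.4. The WT values of these 4 tissues were the 4 lowest. In MEFs the values were 35.7 and 82.7 FPKM, and in eyes 17.6 and 38.6. Testes had the highest WT value, 83 FPKM, and 87 in the knockout. The WT values thus spanned 21.3-fold between tissues and the knockout values 2.71-fold. The lowest knockout value, 38.6 FPKM in eyes, was above the highest WT value outside testes, 35.7 in MEFs. The order of the WT levels was testes, MEFs, eyes, liver, heart, prostate and spleen, with eyes, liver and heart close together, and whether such neighbours differ cannot be tested without replicates.

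**Figure D1:**
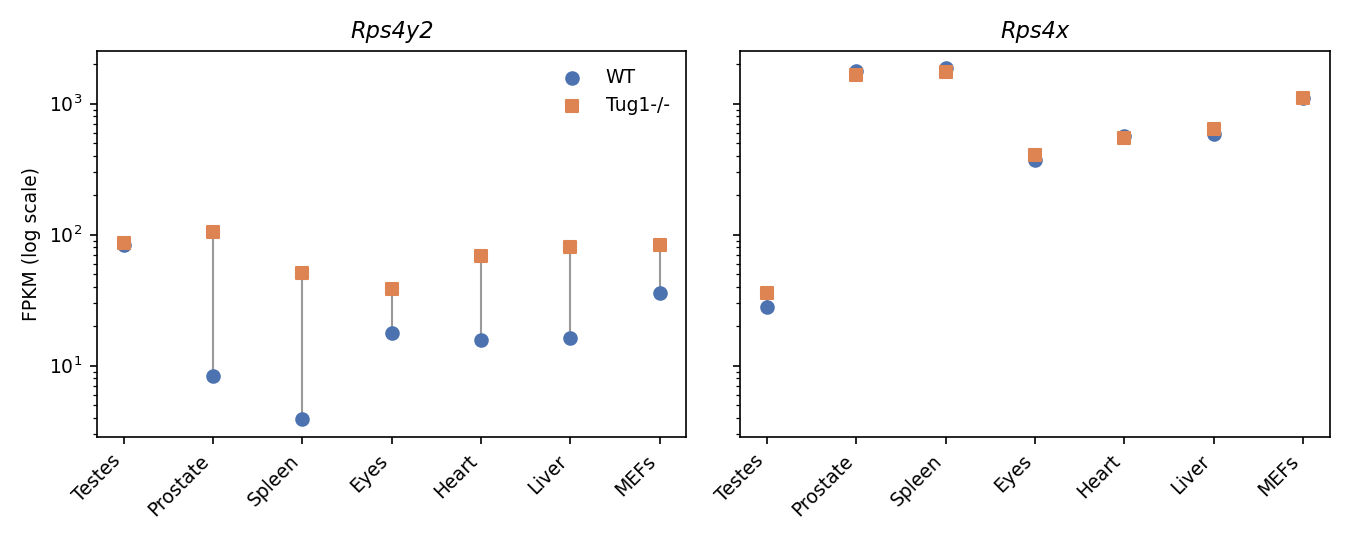
Level of *Rps4y2* (left) and *Rps4x* (right) in each tissue, in FPKM on a log scale. Circles are the WT and squares the *Tug1*-/- values, 1 combined value per genotype and tissue. *Rps4y2* lies higher in the knockout in 6 tissues and near the WT value in testes, where WT is at 83 FPKM, while the *Rps4x* values of both genotypes lie close together.

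The change of *Rps4x* was far smaller than that of its copy outside testes. It was -0.10 in spleen, -0.08 in prostate, -0.04 in heart, -0.01 in MEFs, 0.11 in eyes and 0.12 in liver, and 0.35 in testes, where *Rps4y2* changed least. Its levels ran from 28.1 FPKM in WT testes to 1863 in WT spleen, the tissue where *Rps4y2* was lowest. FPKM is per length, so the 2 genes are set side by side here. However, *Rps4x* shared 72.2% of its stretches of 50 bases with other genes, against 14.9% for *Rps4y2*. Its values, and the percentages below, can therefore be too high or too low. In WT, *Rps4y2* was 0.209% of the *Rps4x* level in spleen, 0.473% in prostate, 2.75% in heart, 2.77% in liver, 3.21% in MEFs and 4.7% in eyes. In the knockout it was 2.92% in spleen, 6.29% in prostate, 12.4% in heart, 12.7% in liver, 7.51% in MEFs and 9.57% in eyes. Testes stood apart, with *Rps4y2* at 295% of *Rps4x* in WT and 243% in the knockout. Summed, the pair changed between -0.06 in spleen and 0.25 in liver.

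Few genes of the table were past 1.5-fold higher in as many tissues as *Rps4y2*. Only 3 genes were past 1.5-fold higher in exactly 6 tissues, *Rps4y2*, *Selm* and *8430429K09Rik*, and *Rnf185* was in all 7. The last 3 lie on chromosome 11 at 135 to 197 kb from the start of *Tug1*, and *Rps4y2* lies on chromosome 6 (the names were looked up after the counts were seen). Of 9275 genes with a mean of at least 1 FPKM in the 6 tissues other than testes, *Rps4y2* and *Rnf185* were the 2 past 1.5-fold higher in all of them. By size of change, *Rps4y2* ranked 8 of 12695 genes in heart, 14 of 12166 in prostate, 16 of 11711 in liver, 25 of 11587 in MEFs, 36 of 12618 in spleen, 58 of 14298 in eyes and 3711 of 15143 in testes.

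The genes around *Rps4y2* stayed within 1.5-fold where their mean was at least 1 FPKM. *Rps4y2* lies within *Tmtc1*, a gene on the opposite strand, and the library kit does not mark strand, so reads of the 2 cannot be told apart by strand. *Tmtc1* was between 0.294 and 21.6 FPKM in WT and changed by -0.20 in spleen, 0.36 in prostate, 0.20 in heart, -0.01 in eyes, 0.01 in testes, -0.18 in MEFs and 0.53 in liver, the last at 0.47 FPKM or less. Within 1 Mb of its start lay 22 other genes of the table, *Tmtc1* among them. Their 79 values with a mean of at least 1 FPKM changed between -0.38 and 0.58 over the 7 tissues, and 0 of them was past 1.5-fold. Values under that mean were left out, and some of those were past it both ways. *Gm16583* in liver went from 0.0281 FPKM in WT to 1.05 in the knockout, and *Gm10203* in testes from 1.38 to 0.

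The genes whose 7 changes followed those of *Rps4y2* most closely by Pearson correlation, out of 8873 with a mean of at least 1 FPKM in every tissue, were *Fam133b* (0.97), *Txlna* (0.97), *Bicd2* (0.97), *Rsrc2* (0.96) and *Rnf168* (0.96). Each of these changed little, from -0.13 to 0.14 for *Fam133b* and from -0.18 to 0.24 for *Bicd2*, and the correlations are over 7 points picked from many genes.

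Among the members, a change past 1.5-fold in either direction was rare. A gene was counted where its mean of WT and knockout was at least 1 FPKM, which 86 members passed in testes and eyes, 85 in heart and 84 in each of the other tissues. All 75 core members passed in every tissue. In spleen 1 of 84 members, *Rps4y2*, was higher past 1.5-fold, against 4.91% of all genes, and 0 was lower, against 1.10%. In prostate the counts were 1 of 84, *Rps4y2*, against 2.40% higher, and 0 against 0.682% lower. In these tissues the members' share was under that of all genes. In liver the counts were 1 of 84, *Rps4y2*, against 2.55% higher, and 0 against 2.25% lower. In heart they were 1 of 85, *Rps4y2*, against 0.874% higher, and 0 against 1.44% lower. Heart and MEFs had few genes past 1.5-fold higher overall. MEFs gave 1 of 84, *Rps4y2*, against 0.975% higher, and 0 against 2.20% lower. Eyes gave 2 of 86, *Rps4y2* and *Rpl3l*, against 2.64% higher, and 0 against 0.867% lower. Testes gave 0 of 86 both ways, against 1.17% higher and 0.753% lower. In each tissue the members' count was thus near or under what the share of all genes gives, and 0 of the 75 core members was past 1.5-fold in any tissue.

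**Figure D2:**
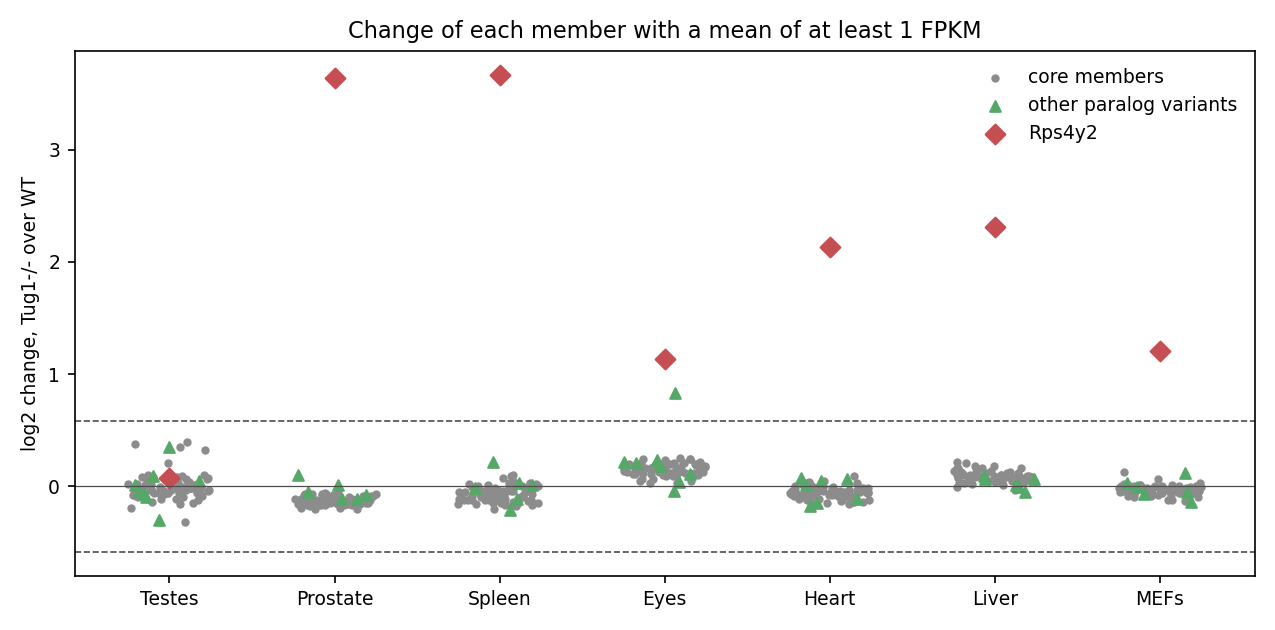
Change of each member with a mean of at least 1 FPKM, as log2 of *Tug1*-/- over WT, by tissue. Grey dots are core members, green triangles paralog variants and red diamonds *Rps4y2*, and the dashed lines mark 1.5-fold. The core members form a narrow band in each tissue and *Rps4y2* lies above it except in testes, with *Rpl3l* at 0.83 in eyes.

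The changes of the core members were small, with 0 of 75 past 1.5-fold in any tissue. Their median change was 0.15 in eyes and 0.08 in liver, and it was -0.13 in prostate, -0.09 in spleen, -0.06 in heart, -0.03 in MEFs and -0.02 in testes. The median of all genes with a mean of at least 1 FPKM was -0.02 in eyes, liver and spleen, -0.04 in prostate, 0.03 in heart, 0.00 in MEFs and -0.06 in testes. All 75 core members were higher in knockout eyes and all 75 were lower in knockout prostate. In liver 73 were higher, in heart 68 lower, in MEFs 64 lower, in spleen 63 lower and in testes 46 lower. Set against the median of all genes, 56 of the 75 were above it in testes and 19 below. In eyes all 75 were above it and in liver 74. Below it were all 75 in prostate, 71 in heart, 64 in MEFs and 58 in spleen. The standard deviation over core members, a spread between genes and not between samples, was 0.04 in prostate and MEFs, 0.05 in eyes, heart and liver, 0.07 in spleen and 0.12 in testes.

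The size of the core median depended on what it was set against. Other genes of at least 50 FPKM had a median of 0.03 in eyes and -0.09 in prostate, a set that was not matched to the levels of the core members. In MEFs and testes the sign of the core median turned when each group was divided by its summed FPKM, to 0.03 and 0.08, and in testes also when changes were centred on all genes, to 0.04. In eyes, liver, prostate, spleen and heart the sign held under each scaling that was run, but the size did not. In prostate the core median was -0.06 after division by the group's sum and -0.03 when centred on genes of at least 50 FPKM, a set chosen after seeing the data. In heart these values were -0.14 and -0.11, and in liver 0.24 and 0.11. In spleen they were -0.12 and -0.08, and in eyes 0.12 and 0.11. Both subunits had similar medians. The median of the large and of the small subunit was 0.14 and 0.16 in eyes, 0.08 and 0.09 in liver, -0.12 and -0.13 in prostate, -0.07 and -0.10 in spleen, -0.06 and -0.07 in heart, -0.04 and -0.03 in MEFs, and -0.01 and -0.03 in testes.

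Single core members at the edges of the band were as follows. In eyes *Rps24* went from 630 to 749 FPKM (0.25) and *Rpl26* from 500 to 591 (0.24), while *Rpl13* and *Rpl6* stood lowest at 0.03 each. In liver *Rps20* went from 318 to 369 (0.22) and *Rpl12* from 205 to 237 (0.21), with *Rpl35a* at -0.03 and *Rps14* at -0.01. All of these lie within 1.19-fold of WT. In prostate *Rps10* went from 1487 to 1295 FPKM and *Rpl28* from 1953 to 1702, both -0.20, and the members closest to WT were *Rps3* and *Rpl35* at -0.06. In spleen *Rps27* (-0.20, from 1992 to 1732) stood lowest, and *Rps2* (0.10) and *Rplp0* (0.09) highest. In heart *Rps15a* (0.09) and *Rpl36* (0.05) stood against *Rps3a1* (-0.16) and *Rpl41* (-0.15). In MEFs *Rpl13* (0.13) and *Rplp2* (0.06) stood against *Rpl41* (-0.13) and *Rpl13a* (-0.12).

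Other proteins of the ribosome, which the name rule misses, stayed within 1.5-fold too. *Rpsa*, a small subunit protein also known as a laminin receptor, changed by 0.11 in eyes and liver, -0.09 in prostate and 0.01 in spleen. *Fau*, which encodes a ubiquitin-like protein fused to S30, changed by 0.15 in eyes and -0.11 in prostate. *Gnb2l1* (Rack1), a scaffold on the small subunit, changed by 0.13 in eyes and testes and -0.13 in prostate. The line spelled RPL24 went from 241 to 267 FPKM in eyes (0.15) and from 926 to 847 in prostate (-0.13), like the core members, whereas the line named *Rpl24* lay between 3.5 and 10.1 FPKM in WT. *Rps19bp1* was between 9.98 and 35.7 FPKM in WT and changed by -0.06 to 0.19.

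The weight of the ribosomal protein genes in the transcriptome differed far more between tissues than between genotypes. Summed over the 87 members, they made up 23.4% of all FPKM in WT spleen, 19.3% in prostate, 15.1% in MEFs, 6.45% in heart, 6.09% in eyes, 3.57% in liver and 2.91% in testes. In the knockout the shares were 21.5% in spleen, 18.4% in prostate, 15.4% in MEFs, 5.89% in heart, 6.65% in eyes, 4.23% in liver and 3% in testes. The shares in liver and prostate rest on sums that lack *Alb* and *Tgm4*. The median WT level of a core member ran from 241 FPKM in testes to 1417 in prostate.

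**Figure D3:**
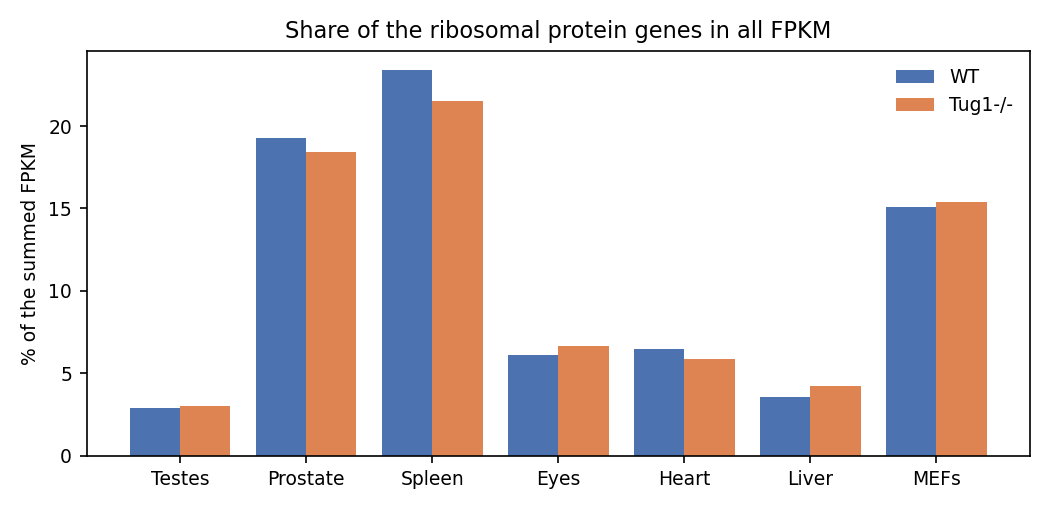
Share of the 87 members in the summed FPKM of all genes, in percent, with 1 bar for WT and 1 for *Tug1*-/- in each tissue. Spleen (23.4% in WT), prostate and MEFs stand high and testes (2.91%) lowest, and the bars of the 2 genotypes are close in each tissue.

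Within the core, *Rpl13a* held the largest share of the core sum as a mean over tissues, 3.41%, followed by *Rplp1*, a protein of the stalk that recruits translation factors, at 3.08%, *Rps24* at 2.81% and *Rpl32* at 2.51%. The lowest were *Rpl5*, which with *Rpl11* binds Mdm2, at 0.391%, *Rpl37* at 0.392% and *Rpl15* at 0.438%. The rank order of WT core levels was alike between tissues, with a Spearman correlation over 75 genes of 0.62 to 0.91 in the 15 pairs without testes and 0.52 to 0.79 in the 6 pairs with testes. Genes whose reads are shared with pseudogenes can be placed too high or too low in this order.

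In testes the X-linked members stood apart from the other core members. The 4 core members on the X chromosome, *Rpl39*, *Rpl10*, *Rps4x* and *Rpl36a*, were the 4 lowest of the 75 in testes in both genotypes. In WT testes *Rpl39* was at 16.8 FPKM, *Rpl10* at 27.5, *Rps4x* at 28.1 and *Rpl36a* at 31.8, and their median was 11.4% of the autosomal core median. In the other tissues that figure ran from 80.3% in heart to 112% in liver. *Rpl36a* shared 85.5% of its stretches of 50 bases with other genes, *Rpl10* 73.7%, *Rps4x* 72.2% and *Rpl39* 16.5%. Their levels can therefore be too high or too low. *Rpl10* helps the subunits join late in assembly, and *Rpl39* lines the tunnel through which the new peptide leaves.

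These 4 genes were also the core members with the highest change in testes. *Rpl36a* went from 31.8 to 41.6 FPKM (0.39), *Rpl10* from 27.5 to 35.7 (0.38), *Rps4x* from 28.1 to 35.9 (0.35) and *Rpl39* from 16.8 to 21 (0.32). The 71 autosomal core members changed by -0.32 to 0.21 there, with a median of -0.03. Over all genes with a mean of at least 1 FPKM in testes, the middle of the distribution ran from -0.15 to 0.06. How many of those genes reach the changes of the X-linked members was not counted. In no other tissue did the X-linked members lie outside the range of the autosomal ones. The 539 other X-linked genes with a mean of at least 1 FPKM in testes had a median change of 0.10, with the middle of their distribution from -0.01 to 0.23, and 14282 other autosomal genes had a median of -0.07. The changes of the 4 X-linked and the 71 autosomal core members are all within 1.5-fold. Of all genes in testes, 1.17% were higher and 0.753% lower past that limit.

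The autosomal copies of the 4 genes were each above the usual form in testes, and their changes there lay between -0.30 and 0.07. *Rpl10l* went from 229 to 186 FPKM (-0.30), *Rpl39l* from 402 to 374 (-0.10), *Rpl36al* from 220 to 209 (-0.07) and *Rps4y2* from 83 to 87 (0.07). As a share of copy plus usual form, *Rpl39l* was 96% in WT and 94.7% in the knockout, *Rpl10l* 89.3% and 83.9%, *Rpl36al* 87.4% and 83.4%, and *Rps4y2* 74.7% and 70.8%. All 4 shares were thus lower in the knockout. Each usual form shared more of its stretches of 50 bases with other genes than its copy did, so the size of these shares is uncertain. *Rplp0*, the base of the stalk, had the largest negative change of a core member in testes, from 553 to 442 FPKM (-0.32), followed by *Rpl36* from 576 to 507 (-0.19).

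In testes 0 of the 4 markers of late germ cells, and 0 of the 12 genes of somatic cells and spermatogonia below, was past 1.5-fold. *Prm1*, *Tnp1*, *Acrv1* and *Ldhc*, genes of late germ cells, were all lower in the knockout by 0.10 to 0.21 on the log2 scale, and their summed level was 22203 FPKM in WT and 19658 in the knockout. Of 12 genes of Sertoli cells, Leydig cells and spermatogonia, a list chosen after the values of the X-linked members were seen, 11 were higher in the knockout, with a median change of 0.29. The highest were *Insl3* (0.58), a Leydig cell hormone, and *Hsd3b1* (0.45), an enzyme of steroid synthesis. The 12 levels summed to 1003 FPKM in WT and 1428 in the knockout, of which *Insl3* alone was 756 and 1131. The 1 gene that was not higher was *Dmrt1* (-0.03). The part of these cells in the values of the ribosomal protein genes was not tested.

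**Figure D4:**
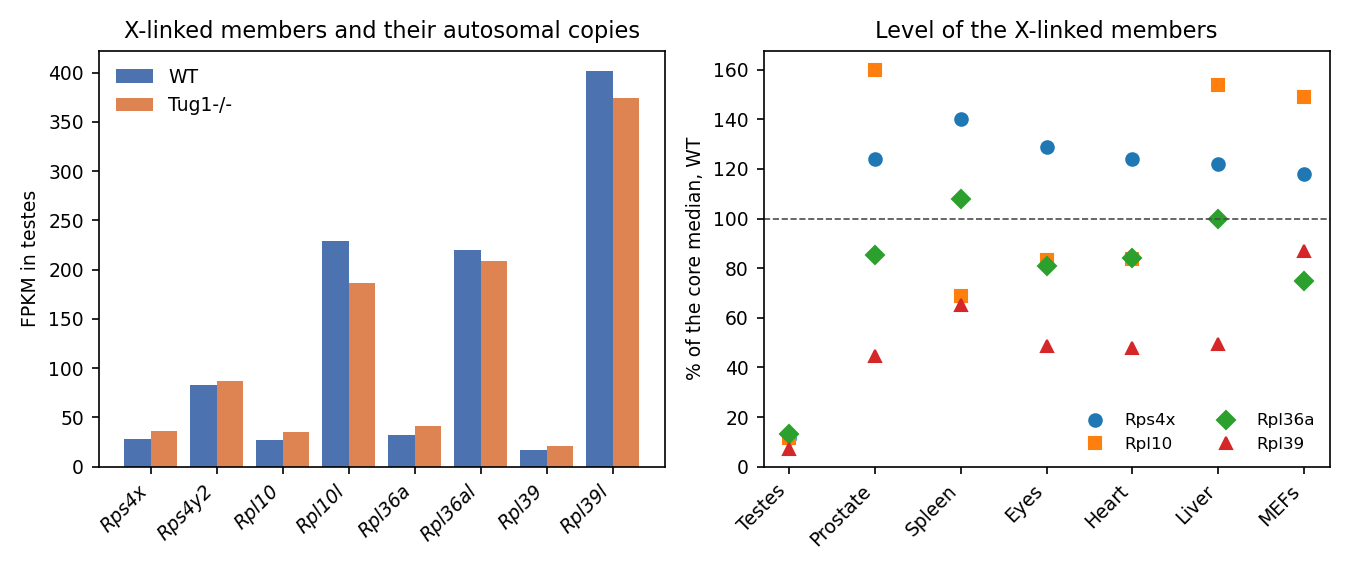
Left, level in testes of the 4 X-linked core members, each beside its autosomal copy, in FPKM for WT and *Tug1*-/-. Right, WT level of each X-linked member as percent of the core median in each tissue, where the dashed line is the core median. All 4 lie between 6.96% and 13.2% in testes and at 44.6% or more elsewhere.

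Of the copies above, *Rpl10l* and *Rpl39l* were far lower outside testes. *Rpl10l* was listed at 0 in both genotypes in the other 6 tissues. *Rpl39l* was at 14.5 FPKM in WT and 14.9 in knockout MEFs, at 1 and 1.04 in eyes, and at 0.643 FPKM or less in every other group. Its values of 0.273 and 0.643 FPKM in spleen and 0.0426 and 0.14 in liver are too low to read a change from. *Rpl36al* was expressed in every tissue, from 105 FPKM in WT eyes to 1110 in WT prostate, and changed between -0.11 and 0.18.

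*Rpl3l*, the striated muscle copy of *Rpl3*, a protein near the peptide-forming centre, was at 188 FPKM in WT heart and 197 in knockout heart (0.07), beside 221 and 213 FPKM of *Rpl3*. Its share of the pair in heart was 45.9% in WT and 48.1% in the knockout. In eyes it went from 18.4 to 32.8 FPKM, a change of 0.83 or 1.77-fold, while *Rpl3* changed by 0.05. All 5 skeletal muscle genes on the fixed marker list were also past 1.5-fold higher in knockout eyes, *Acta1* from 276 to 551 FPKM, *Ckm* by 0.87, *Tnnt3* by 0.85, *Mylpf* by 0.83 and *Myh4* by 0.77, and their sum was 1666 FPKM in WT and 3042 in the knockout. The part of muscle in the *Rpl3l* value was not tested. In heart 3 of these 5 genes were lower past 1.5-fold in the knockout, such as *Tnnt3* from 30.3 to 0.786 FPKM, while *Rpl3l* was not. In the remaining 5 tissues *Rpl3l* was at 0.368 FPKM or less.

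The other variants stayed within 1.5-fold in every tissue where they passed the filter. *Rpl22l1*, a copy of the RNA-binding *Rpl22*, ranged from 59.2 FPKM in WT eyes to 256 in WT spleen and changed between -0.21 in spleen and 0.22 in eyes. *Rps27l*, known as a target of p53, ranged from 44.2 FPKM in eyes to 608 in liver, where it exceeded *Rps27* at 406, and changed between -0.14 in MEFs and 0.22 in spleen. *Rpl7l1*, whose coding sequence was identical to that of *Rpl7* at only 50.3% of aligned positions, ranged from 12.5 to 41.2 FPKM. It changed between -0.02 and 0.12. *Rps3a2* and *Rps3a3*, both classed as processed pseudogenes in vM21, shared 90.2% and 65.1% of their 50-base stretches with other genes, chiefly *Rps3a1* and each other, so their values of up to 66.6 and 42.5 FPKM are uncertain. The largest change of the 2 was 0.35 for *Rps3a3* in testes, at 5.57 and 7.13 FPKM.

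**Figure D5:**
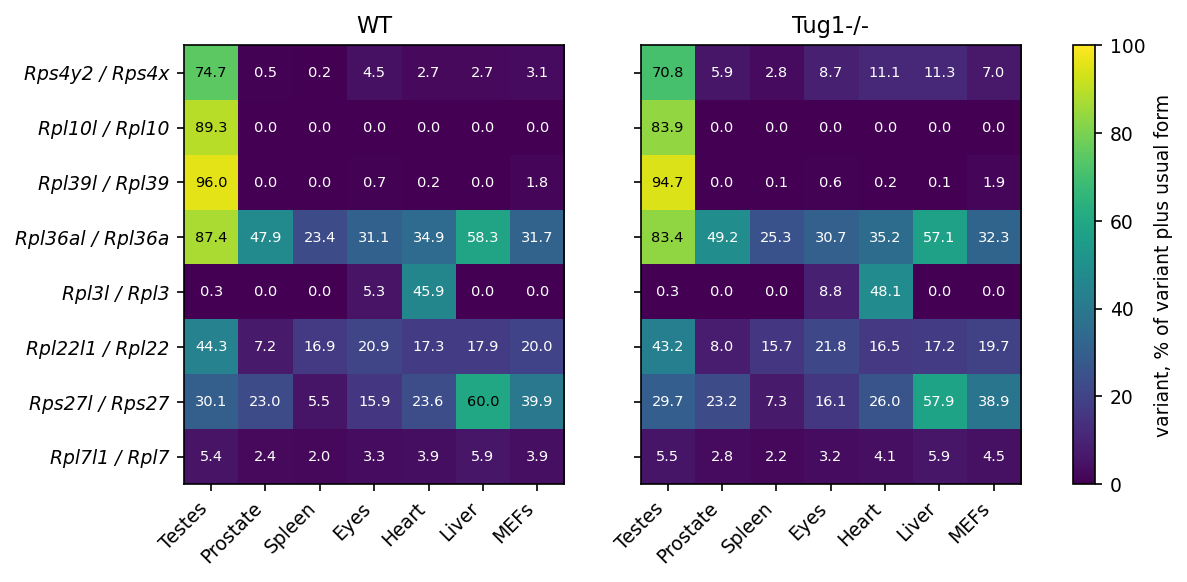
Share of each paralog variant in the sum of variant and usual form, for 8 of the 10 pairs (*Rps3a2* and *Rps3a3* are left out), in percent of their summed FPKM, by tissue for WT (left) and *Tug1*-/- (right). The share of *Rps4y2* is higher in the knockout in every tissue but testes, and *Rpl10l* (89.3% in WT), *Rpl39l* and *Rpl36al* exceed their usual forms in testes.

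Genes that build and feed the ribosome were taken from lists written with earlier results of these data known, and their counts stand against 0.682% to 4.91% of all genes past 1.5-fold per tissue and direction. Of 40 ribosome biogenesis genes, from subunits of RNA polymerase I to assembly factors, 0 of 280 values was past 1.5-fold, and their median ran from 0.00 in testes to 0.29 in MEFs, where 38 of the 40 were higher in the knockout and the core ribosomal proteins were at -0.03. Of 32 elongation and initiation factors 0 of 224 values was past it, with medians of -0.08 to 0.08. Of 76 mitochondrial ribosomal proteins 0 of 532 values was past it. Their median was 0.14 in eyes and -0.11 in prostate, with the same sign as the cytosolic core members. It was 0.07 in spleen, 0.05 in heart and 0.01 in MEFs, where the core median was below 0. In liver it was -0.03, against 0.08 for the core, and in testes both were below 0 (-0.05 and -0.02). Of 15 regulators of ribosomal protein synthesis 2 of 104 values were past it, both of *Myc*, a transcription factor of ribosome genes, which was at 1.63 FPKM in WT and 3.05 in knockout liver (0.86), and at 27.5 and 41.4 FPKM in MEFs (0.59).

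Markers of blood and fat also differed between the genotypes in several tissues, and their part in the medians above was not tested. Of 6 erythroid genes, all 6 were past 1.5-fold higher in knockout spleen, with a sum of 7795 FPKM in WT and 14538 in the knockout. In eyes 5 of the 5 with a mean of at least 1 FPKM were, and in prostate 4 of 5. In heart 2 were higher and 2 lower, and in testes and liver 0 was past the limit. In MEFs 0 of the 6 had a mean of at least 1 FPKM. All 4 adipocyte genes were past 1.5-fold higher in knockout prostate, with a sum of 65.9 FPKM in WT and 252 in the knockout, and in knockout eyes, with 108 and 393, and 3 of the 4 were lower past it in knockout heart. In MEFs the erythroid genes summed to 0.275 FPKM in WT and 0.274 in the knockout, and the adipocyte genes to 1.85 and 1.9.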

How the data were processed

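Per the labels, polyadenylated RNA was made into libraries with the TruSeq RNA kit v2, and the submitters' processing notes name CASAVA 1.8.2, TopHat2, Cuffdiff and the build mm10; the study's methods describe another route (STAR, featureCounts and, by the authors, DESeq2). The deposited table gives FPKM values that the authors computed per genotype and tissue with replicates combined. Its columns of fold changes, test statistics, p-values and q-values hold the authors' own comparisons and were not used, nor were its brain lines. As 1 value per group allows no test, none was run.

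The change was log2((knockout + 0.1)/(WT + 0.1)); a gene was past the limit at 1.5-fold with a mean of at least 1 FPKM. The functions were tested on simulated data (WT values with known changes put in). Python 3.11.15, pandas 2.3.3 and Biopython 1.88 were used. Positions and transcripts are from GENCODE vM21, which holds 25827 of the 26653 identifiers and all 87 members. Named genes were *Rps4y2*, *Rps4x*, each variant with its usual form, the 2 highest and 2 lowest core changes per tissue, the 5 highest and 3 lowest core shares, 4 further ribosome genes, the 5 genes most like *Rps4y2* and, by count, neighbours within 1 Mb; a few of the genes so named are not reported here. Members and lists were chosen with earlier results of these data known. Alternatives covered the pseudocount, the filter, the limit and the scaling.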

Additional observations from a re-analysis of the deposited data

How the results depend on the processing

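The change of *Rps4y2* kept its side of 1.5-fold in each tissue under every alternative run on it (a pseudocount of 1 or 0.01, division by the group's summed FPKM, centring on the median), with values of 3.50 to 3.71 in prostate and 0.07 to 0.17 in testes. Counts of members past the limit were within 1.5 times in 95 of 98 comparisons. With a limit of 2-fold the count higher in eyes was 1, and with no filter on low values it was 2 in liver and 2 in spleen, since *Rpl39l* then entered. The median of the core members moved by over 0.1 in 3 of 63 comparisons: divided by the group's sum it was 0.24 in liver and 0.08 in testes, and centred on genes of at least 50 FPKM, chosen after seeing the data, it was 0.10 in testes. Counting the line named *Rpl24* as core, also chosen after seeing the data, left each median as it was at 2 decimals. Of the changes of the 9 other variants, 6 of 126 moved, all of *Rpl39l* or *Rpl3l* in groups under 1 FPKM. No paired analysis was possible because the table holds 1 combined value per genotype and tissue, and for the same reason no replicate could be left out. Depth is unknown, so no smallest detectable change can be given.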
